A study of Rattus norvegicus with 12 samples.

Results

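A set of 10 genes that mark the cells of small vessels was followed through 12 RNA libraries of cultured rat heart muscle cells. They were taken by symbol from the deposited transcript tables, 10 of 32883 genes, and each symbol matched 1 gene identifier. Cdh5, Kdr, Tek, Tie1 and Vwf mark endothelium, the inner lining of vessels. Cnn1, Pdgfrb, Cspg4, Notch3 and Abcc9 mark mural cells, the pericytes and smooth muscle around it. Abcc9 can also be transcribed by heart muscle cells. The names endothelial and mural follow these marker roles, and which cells of the culture held each gene's RNA was not tested.

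The endothelial genes encode the adhesion and receptor machinery of the lining. Kdr is the main receptor for the growth factor VEGF-A, and Tek is the receptor for angiopoietins, with Tie1 as its co-receptor. Mural cells receive platelet-derived growth factor from endothelium through Pdgfrb and Notch ligands through Notch3, and their coat depends on both signals. A preparation of neonatal heart muscle cells carries vessel cells, fibroblasts and macrophages along with the myocytes.

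Cardiomyocytes came from Sprague-Dawley rats aged 1 to 3 days, were plated at 40000 cells per cm2 and grew in 7% serum for 24 h. AraC at 10 µM, a drug that stops dividing cells, was present for the first 2 steps of 24 h and absent from the third. Treatment lasted 24 h. It was acetic acid as vehicle, 100 nM endothelin-1 (ET-1, a peptide hormone) or 10 µM PE (phenylephrine, which stimulates alpha-1 adrenergic receptors). Each treatment was given with DMSO or with JQ1 (1 µM), which displaces BET bromodomain proteins from acetylated chromatin, and each of the 6 groups held 2 libraries, named replicate 1 and replicate 2. The study's title concerns the elongation factor P-TEFb in hypertrophy driven by distinct G protein-coupled receptors. Whether the replicates came from different cultures or animals is not in the labels. The p-values therefore reflect the spread between these libraries alone, which may be technical.

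Summed coverage was 2.34 to 2.97 Gb per library. Levels are rescaled FPKM (fragments per kilobase of transcript, scaled to library size), summed over a gene's transcripts and divided by a size factor per library. Differences are in log2(level + 0.5) ± SE from limma across 13793 genes, with Benjamini-Hochberg adjusted p and a threshold of 0.05, and the fit without the replicate number comes first. A gene was tested if 2 libraries reached 1 rescaled FPKM, so a gene that did so only in the group where it was higher had to differ there. For such genes the adjusted p printed comes from the fit with no filter, over 21852 genes listed above 0 in any library, and is named as unfiltered. The 9 matched cardiomyocyte markers summed to 13972 to 25545 per library, against 123 to 1362 for 12 fibroblast markers and 1.01 to 15.9 for 10 macrophage markers. In bulk RNA, fewer cells of a type and less RNA per cell cannot be told apart.

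**Figure D1:**
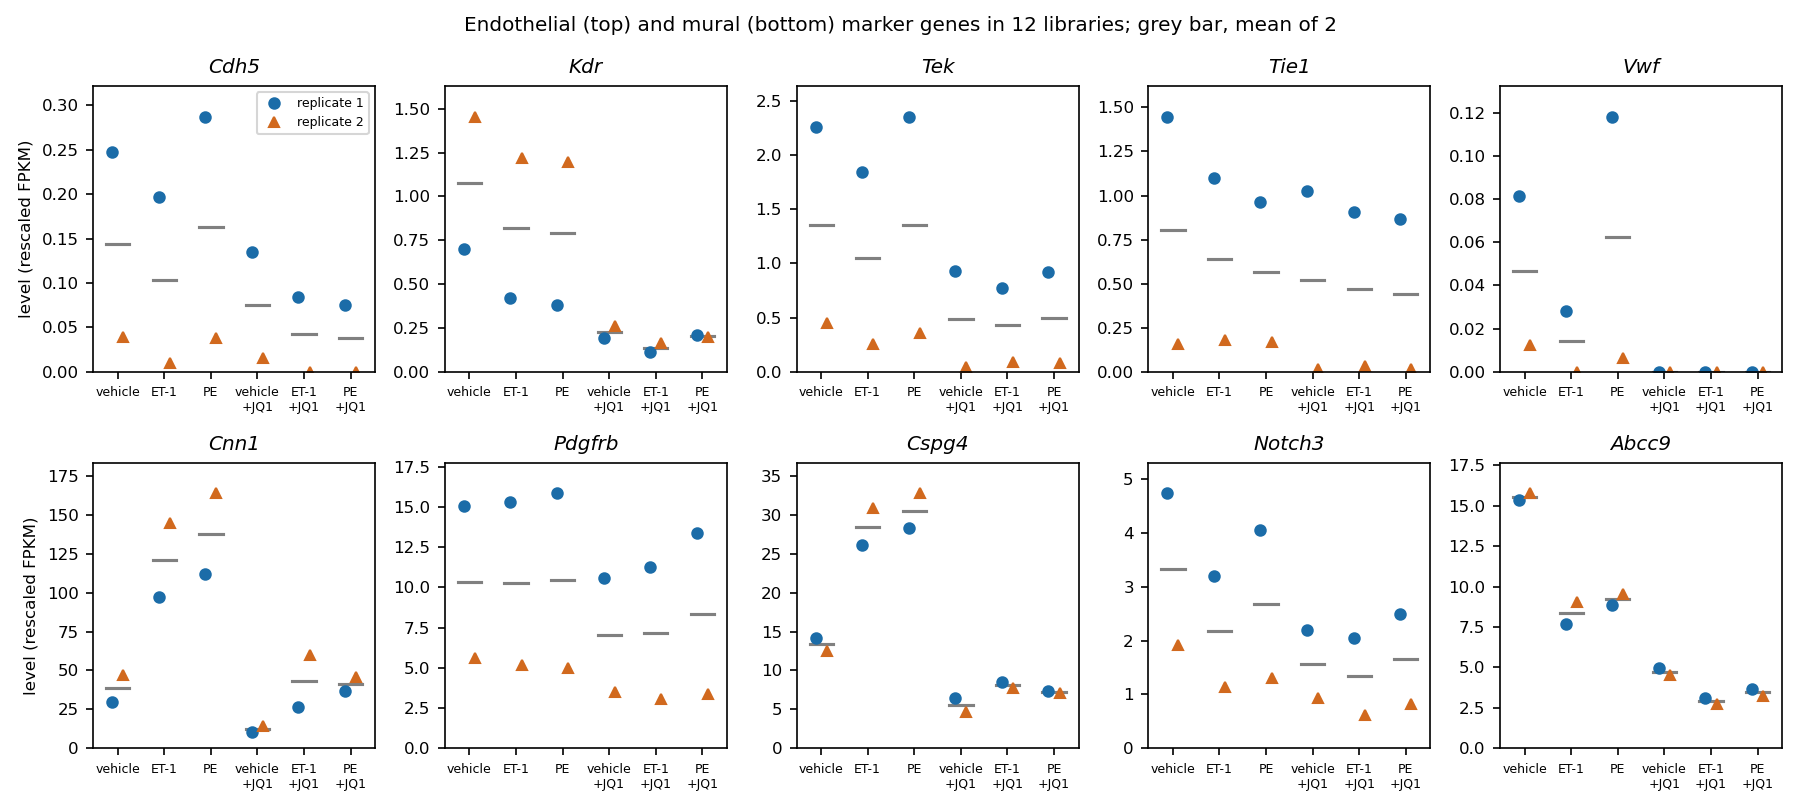
Level of each member (rescaled FPKM, linear axes from 0) in the 6 groups. Circles are replicate 1, triangles replicate 2 and grey bars the mean of the 2 libraries. Tek, Tie1, Pdgfrb, Notch3 and Cdh5 sit higher in replicate 1 of every group, Cnn1 higher in replicate 2, and Cspg4 and Abcc9 lie close together in the 2 replicates.

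The adhesion and storage markers of endothelium were at the floor of these libraries. Cdh5, the cadherin of endothelial junctions (chromosome 19, 1023683 to 1074365, minus strand, rn6, 2 annotated transcripts), was below 1 rescaled FPKM in every library. Its levels in replicates 1 and 2 were 0.248 and 0.039 with vehicle, 0.197 and 0.0096 with ET-1, and 0.287 and 0.038 with PE. With JQ1 they were 0.135 and 0.016, then 0.085 and 0, then 0.076 and 0. Replicate 1 exceeded replicate 2 in every group, with no overlap, and the DMSO library exceeded the JQ1 library in each of 6 pairs of the same treatment and replicate.

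Vwf, the clotting factor stored by endothelium (chromosome 4, 158088505 to 158219523, plus strand), reached 0.082 and 0.012 with vehicle, 0.028 and 0 with ET-1, and 0.118 and 0.0063 with PE. It was listed at 0 in all 6 JQ1 libraries and in 7 of 12 libraries in all, and such a 0 can be a failed estimate. The highest summed coverage of Vwf was 2855 bases and that of Cdh5 3165 bases in any library. Both genes missed the filter for testing, which asked for 2 libraries with 1 rescaled FPKM or more, so JQ1 was compared by a two-sided exact permutation test within treatments, whose smallest possible p was 0.0093. For Cdh5 the difference was −0.19 with exact p = 0.213, or 0.0312 when signs were exchanged within replicate pairs, the smallest p which that design of 64 arrangements allows. For Vwf it was −0.11 with exact p = 0.0278, or 0.0625 within pairs. Vwf's p lay between 0.0648 and 0.1944 without any 1 of the JQ1 libraries and was 0.0556 without ET-1 replicate 1.

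Tek and Tie1, the receptor pair of the angiopoietin system, were several times higher in replicate 1. Tek (chromosome 5, 113725717 to 113852799, plus strand, 1 transcript of 23 exons) was at 2.25 and 0.450 in replicates 1 and 2 with vehicle, 1.84 and 0.254 with ET-1, and 2.35 and 0.355 with PE. Under JQ1 the levels were 0.932 and 0.046, then 0.777 and 0.089, then 0.918 and 0.081 in the same order of treatments. The lowest replicate 1 level (0.777) was above the highest replicate 2 level (0.450). The ratio of replicate 1 to replicate 2 ranged from 5.01 to 20.4 over the 6 groups.

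Tie1 (chromosome 5, 137294544 to 137321121, minus strand, 3 transcripts) was at 1.45 and 0.158 with vehicle, 1.10 and 0.179 with ET-1, and 0.966 and 0.168 with PE. With JQ1 added, Tie1 was at 1.03 and 0.016, then 0.904 and 0.034, then 0.864 and 0.016. Replicate 2 with JQ1 was therefore near 0 in all 3 treatments, while replicate 1 with JQ1 overlapped replicate 1 without it. Tek and Tie1 each reached 1 rescaled FPKM in 3 libraries, all of replicate 1, so both passed the filter only through that replicate.

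Kdr ran the other way between the replicates. Kdr (chromosome 14, 34727623 to 34787183, plus strand, 3 transcripts) was at 0.703 and 1.46 in replicates 1 and 2 with vehicle, 0.422 and 1.22 with ET-1, and 0.384 and 1.20 with PE. In the JQ1 groups Kdr was at 0.190 and 0.264, then 0.113 and 0.164, then 0.208 and 0.198. Replicate 2 was higher in each of the 3 DMSO groups, and with JQ1 the replicates overlapped. Kdr passed the filter only through the 3 DMSO libraries of replicate 2, and no JQ1 library reached the lowest DMSO library (0.264 against 0.384).

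Kdr and Tie1, which ran in opposite directions between the replicates, are shown by the 250 bases before their annotated starts, from RefSeq on GRCr8, a later build than the files' rn6. Entries for 6 of the 10 members matched by symbol. Capitals mark the letters GTGGGAA or their reverse complement, the core that the Notch effector RBPJ recognises.

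Kdr: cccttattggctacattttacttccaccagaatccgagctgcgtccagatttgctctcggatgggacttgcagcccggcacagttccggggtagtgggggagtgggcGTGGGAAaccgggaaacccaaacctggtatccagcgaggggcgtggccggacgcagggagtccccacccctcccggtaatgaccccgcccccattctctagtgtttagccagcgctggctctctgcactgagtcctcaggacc
Tie1: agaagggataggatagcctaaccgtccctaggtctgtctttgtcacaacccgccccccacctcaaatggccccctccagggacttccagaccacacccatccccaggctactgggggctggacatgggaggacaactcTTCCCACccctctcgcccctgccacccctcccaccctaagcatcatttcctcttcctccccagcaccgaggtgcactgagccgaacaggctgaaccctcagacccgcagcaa

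The Kdr stretch is chr14:32571813-32572062 on the plus strand, with GTGGGAA beginning 143 bases before the start. The Tie1 stretch is chr5:137304982-137305231 on the minus strand, with the reverse complement beginning 112 bases before the start. On both strands GTGGGAA was found in 2 of the 6 member promoters and in 5.27% of 33469 promoters of the same length. The letters CCGGAAG, an ETS factor core (7.27% of promoters), TATAAA (12.93%) and the CArG box of serum response factor (1.5%) were in none of the 6. A match is a description of letters and not a binding site.

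Among the mural genes, Pdgfrb and Notch3 shared the replicate split of Tek and Tie1. Pdgfrb, the platelet-derived growth factor receptor of pericytes and fibroblasts (chromosome 18, 56364620 to 56406381, plus strand), was at 15.1 and 5.59 in replicates 1 and 2 with vehicle, 15.3 and 5.20 with ET-1, and 15.9 and 5.02 with PE. JQ1 libraries held 10.6 and 3.48, then 11.2 and 3.09, then 13.4 and 3.35. Replicate 1 was 2.7 to 3.99 times replicate 2, and the agonists left each replicate's level within 0.898 to 1.05 times that of vehicle without JQ1.

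Notch3, the Notch receptor of vascular smooth muscle and pericytes (chromosome 7, 14138495 to 14189688, minus strand), was at 4.74 and 1.92 with vehicle, 3.21 and 1.13 with ET-1, and 4.05 and 1.3 with PE. In the JQ1 groups it was at 2.19 and 0.926, then 2.05 and 0.623, then 2.50 and 0.819. Replicate 1 exceeded replicate 2 without overlap, by 2.36 to 3.30 times.

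Cspg4, Cnn1 and Abcc9 differed more between treatments than between replicates. Cspg4, the NG2 proteoglycan of the pericyte surface (chromosome 8, 61532465 to 61567510, plus strand, 1 transcript), was at 14.2 and 12.5 with vehicle, 26.1 and 30.9 with ET-1, and 28.3 and 32.8 with PE. With JQ1 it was at 6.42 and 4.69, then 8.57 and 7.68, then 7.38 and 7.04. All JQ1 libraries lay below all DMSO libraries, and all 4 agonist libraries without JQ1 lay above both vehicle libraries.

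Cnn1, calponin, an actin-binding protein of smooth muscle (chromosome 8, 23113048 to 23121761, plus strand, 1 transcript of 1500 nt), had the highest mean of the 10 in every group. It was at 29.6 and 47.3 with vehicle, 97.3 and 145 with ET-1, and 112 and 164 with PE. Under JQ1 it was at 10.6 and 14.1, then 26.7 and 59.8, then 36.9 and 45.9. The libraries of vehicle, ET-1 with JQ1 and PE with JQ1 (means 38.5, 43.3 and 41.4) overlapped one another.

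Abcc9, the SUR2 regulatory subunit of ATP-sensitive potassium (KATP) channels (chromosome 4, 176805431 to 176922424, minus strand), was the member with the smallest replicate difference. It was at 15.4 and 15.8 with vehicle, 7.66 and 9.05 with ET-1, and 8.88 and 9.57 with PE. With JQ1 it was at 4.95 and 4.50, then 3.13 and 2.76, then 3.68 and 3.23. The order of group means was vehicle, PE, ET-1, vehicle with JQ1, PE with JQ1 and ET-1 with JQ1, in which only the neighbouring ET-1 and PE groups without JQ1 had overlapping libraries.

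The upstream 250 bases of Cspg4, Cnn1 and Abcc9, each called with JQ1 and with an agonist, are given in the same way, with none of the 4 motifs in them.

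Cspg4: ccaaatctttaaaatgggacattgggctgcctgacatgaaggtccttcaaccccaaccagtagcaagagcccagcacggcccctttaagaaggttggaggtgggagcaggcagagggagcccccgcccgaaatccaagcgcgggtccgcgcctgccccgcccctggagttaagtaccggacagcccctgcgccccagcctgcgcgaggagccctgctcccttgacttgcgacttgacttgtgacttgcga
Cnn1: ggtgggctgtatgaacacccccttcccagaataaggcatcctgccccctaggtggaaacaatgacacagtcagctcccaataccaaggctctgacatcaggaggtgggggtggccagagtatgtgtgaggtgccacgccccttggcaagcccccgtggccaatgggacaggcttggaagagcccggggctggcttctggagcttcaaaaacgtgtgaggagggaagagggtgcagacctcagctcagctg
Abcc9: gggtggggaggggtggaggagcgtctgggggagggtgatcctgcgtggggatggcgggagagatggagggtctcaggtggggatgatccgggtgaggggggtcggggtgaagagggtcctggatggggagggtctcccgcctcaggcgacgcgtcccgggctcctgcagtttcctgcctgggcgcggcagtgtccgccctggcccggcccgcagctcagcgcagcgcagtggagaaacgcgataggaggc

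These are chr8:66160692-66160941 and chr8:28908187-28908436 on the plus strand and chr4:177386349-177386598 on the minus strand of GRCr8. G and C made up 71.2% of the Abcc9 stretch, against 62.0% for Cspg4 and 59.6% for Cnn1.

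The replicate numbers separated the members in both directions. In the fit with group and replicate, Pdgfrb was higher in replicate 1 by 1.57 ± 0.067 (adjusted p = 4.4e-06) and Notch3 by 1.15 ± 0.064 (1.2e-05). Tek and Tie1, which passed the filter only through replicate 1, were higher there by 1.45 ± 0.090 (unfiltered adjusted p = 0.00012) and 1.38 ± 0.073 (6.4e-05). Cnn1 differed by −0.61 ± 0.10 (adjusted p = 0.0027) and was lower in replicate 1 of 6 of 6 groups. Kdr, which passed only through replicate 2, differed by −0.46 ± 0.16, was lower in 5 of 6 groups and was not called (unfiltered adjusted p = 0.077). Cspg4 differed by 0.06 ± 0.087 (adjusted p = 0.62) and Abcc9 by 0.01 ± 0.062 (0.89).

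Of all tested genes, 18.9% were higher and 18.1% lower in replicate 1 by this test, and 13.6% and 9.94% with no filter. The libraries of the 2 replicates did not overlap for Cdh5, Tek, Tie1, Pdgfrb and Notch3, with replicate 1 above. Among tested genes 3.48% held this pattern, a share that bears on Pdgfrb and Notch3 only. Cdh5 was not tested, and Tek and Tie1 passed the filter only through replicate 1. Markers of other cell types differed between the replicates as well. All 11 tested fibroblast markers were higher in replicate 1 (median 1.90) and all 5 tested macrophage markers (median 0.85), of which 1 and 2 reached 1 rescaled FPKM only in replicate 1, while 4 of 9 cardiomyocyte markers were lower and none was higher (median −0.31). The median over all tested genes was −0.02. The summed fibroblast level was 3.95 to 4.92 times higher in replicate 1, the summed macrophage level 2.61 to 5.58 times and the 5 endothelial members together 2.16 to 7.03 times. For the 5 mural members together the ratio of replicate 1 to replicate 2 was 0.699 to 1.25. The scavenger receptor Cd163 of the macrophage list was listed at 0 in all 12 libraries, and 5 of the 10 macrophage markers stayed below 1 rescaled FPKM throughout. The part of fibroblast or macrophage RNA in the members' differences was not tested.

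**Figure D2:**
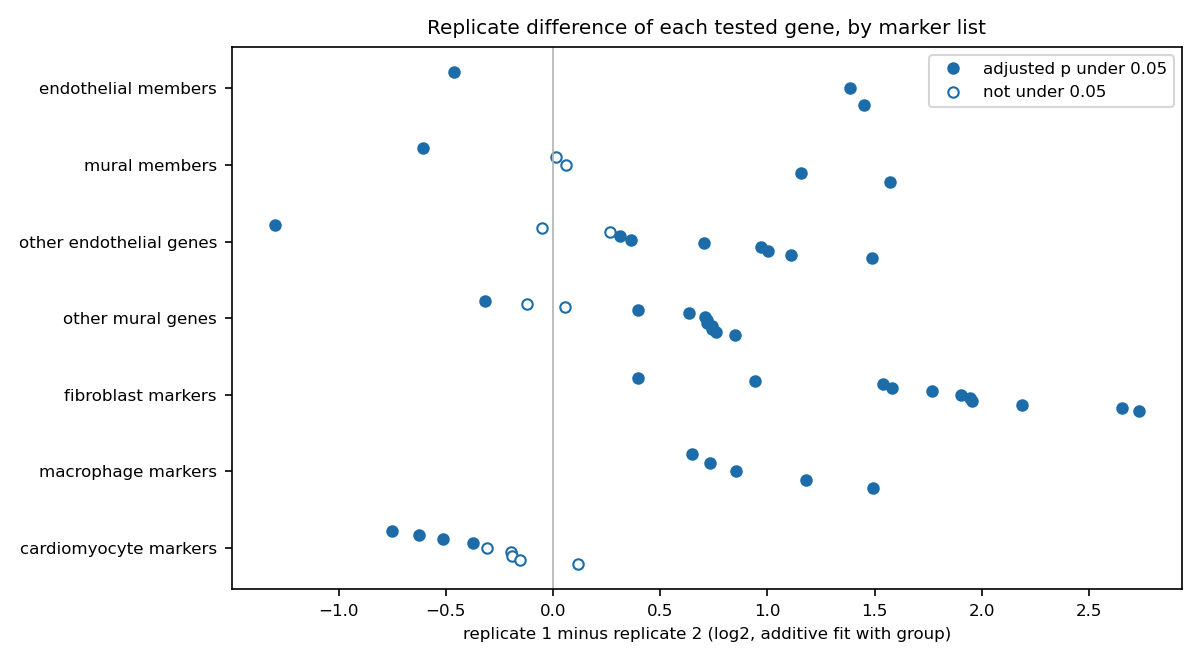
Replicate 1 minus replicate 2 (log2) for every tested gene of 7 marker lists, 1 point per gene. Filled points had an adjusted p under 0.05 in the filtered limma fit. That fill is no test for genes that passed the filter only through the replicate where they were higher, among them Tek, Tie1 and Kdr. Kdr is filled at 0.048, and its unfiltered adjusted p was 0.077. Fibroblast and macrophage points all lie to the right of 0, cardiomyocyte points mostly to the left, and the members on both sides.

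Other vessel genes, from wider lists, also split on both sides. Of 10 tested other endothelial genes, 7 were higher and 1 lower in replicate 1 (median 0.53), and 3 of the 7 reached 1 rescaled FPKM only there. Of all tested genes 18.9% were higher and 18.1% lower. With no filter 14 of 28 genes of this list were higher, beside 13.6% of all genes. The lower gene of the list, named after its values were seen, was S1pr1, a receptor for sphingosine-1-phosphate, at −1.3 ± 0.058 (adjusted p = 5.4e-06). The summed level of this list in replicate 1 was 0.674 to 0.951 times that in replicate 2, unlike the sum of the 5 endothelial members. S1pr1 weighed heavily in that sum, at up to 51.1 in replicate 2 and 23.4 in replicate 1. Gene by gene, 15 of the 29 matched were higher in replicate 1 of all 6 groups and 1 in replicate 2. Esam, an endothelial junction adhesion molecule, was higher by 1.00 ± 0.15 (adjusted p = 0.0018). Of 12 tested other mural genes, 9 were higher, 3 of them at 1 rescaled FPKM only in replicate 1, and 1 was lower (median 0.71). With no filter 11 of 16 genes of the mural list were higher. Myh11, smooth muscle myosin, was higher by 0.71 ± 0.056 (adjusted p = 7e-05) and Acta2, smooth muscle actin, by 0.40 ± 0.089 (0.011). Cnn1, which is also a smooth muscle contractile gene, differed from Myh11 and Acta2 in sign. Of the 9 cardiomyocyte markers, 8 had the sign of Cnn1. Which cells held the Cnn1 RNA was not tested.

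JQ1 lowered 3 mural members in the fit without the replicate number, as a mean over the 3 treatments. Cspg4 fell by 1.65 ± 0.089 (adjusted p = 4.2e-06), Cnn1 by 1.61 ± 0.24 (0.00052) and Abcc9 by 1.43 ± 0.064 (2.1e-06). Kdr, which passed the filter only through DMSO libraries, fell by 0.95 ± 0.23 (unfiltered adjusted p = 0.011). In linear terms, the DMSO library was 2.21 to 4.65 times the JQ1 library of the same treatment and replicate for Cspg4, 2.42 to 3.64 times for Cnn1, 2.42 to 3.50 times for Abcc9 and 1.84 to 7.46 times for Kdr. JQ1 lowered 29.9% of all tested genes and raised 30.2% by the same criterion (23.5% lowered with no filter), so a fall under JQ1 was common among genes at large.

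The other tested members did not pass the threshold until the replicate number entered the fit. Tek, at 1 rescaled FPKM only in DMSO libraries, differed by −0.76 ± 0.54 (unfiltered adjusted p = 0.31), Notch3 by −0.64 ± 0.41 (adjusted p = 0.21), Pdgfrb by −0.49 ± 0.56 (0.47) and Tie1 by −0.29 ± 0.50 (0.64). With the replicate block the same differences had standard errors of 0.090, 0.064, 0.067 and 0.086. Their adjusted p values were then 3.9e-05 for Notch3, 0.00024 for Pdgfrb and 0.017 for Tie1, beside 36.9% of all tested genes that were lower and 36.6% that were higher. For Tek the unfiltered adjusted p with the block was 0.00035 and for Kdr 0.0017, beside 30.2% of the 21852 genes that were lower. Tie1 lost its call in the filtered fit with the block without vehicle replicate 1 (adjusted p = 0.053). Counting the 10 members without a test, 9 were lower with JQ1 in each of 6 pairs. The share among tested genes was 33.8%, but the sets are unlike. The 9 include Cdh5, which was not tested, and Kdr and Tek, which passed the filter only through DMSO libraries. Vwf was lower in 5, with 1 pair at 0 in both libraries. Only Kdr, Cspg4 and Abcc9 had no overlap between their 6 DMSO and 6 JQ1 libraries, which 18.5% of tested genes also showed in this direction. Given how Kdr passed the filter, that share bears on Cspg4 and Abcc9 only.

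**Figure D3:**
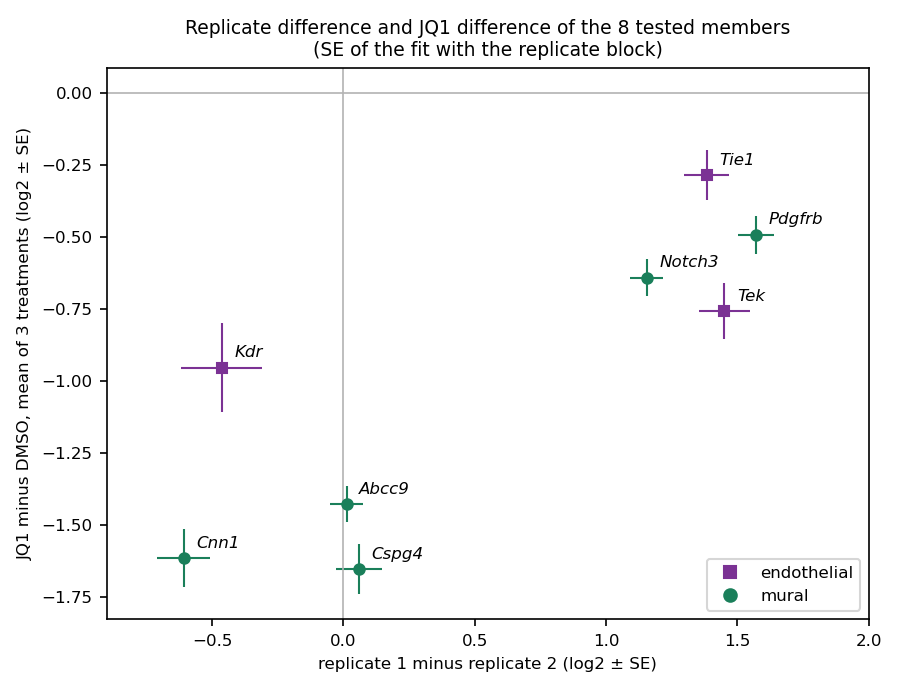
JQ1 minus DMSO (vertical, mean of 3 treatments) against replicate 1 minus replicate 2 (horizontal) for the 8 tested members, both in log2 ± SE of the fit with the replicate block. Cspg4, Cnn1 and Abcc9 lie lowest, between −1.65 and −1.43, and near or left of 0 on the replicate axis. Tek, Tie1, Pdgfrb and Notch3 lie at 1.15 to 1.57 on that axis. The constant added before log2 shrinks the falls of low genes such as Kdr, Tek and Tie1. Median linear ratios of DMSO to JQ1 were 4.63 for Kdr, 3.44 for Cspg4, 3.34 for Tie1 and 3.19 for Cnn1. They were 3.03 for Abcc9, 2.71 for Tek, 1.72 for Notch3 and 1.46 for Pdgfrb.

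Within single treatments Cspg4 fell with JQ1 by 1.21 ± 0.15 in vehicle (adjusted p = 0.0011), by 1.75 ± 0.15 in ET-1 (0.00019) and by 2.0 ± 0.15 in PE (0.00015). Abcc9 fell by 1.62 ± 0.11, 1.36 ± 0.11 and 1.3 ± 0.11 (adjusted p from 0.0001 to 0.00017). Cnn1 fell by 1.58 ± 0.41, 1.56 ± 0.41 and 1.71 ± 0.41 (adjusted p = 0.021, 0.019 and 0.013). These 3 genes were called in each treatment, beside 16.7%, 19.6% and 19.0% of tested genes that were lower in vehicle, ET-1 and PE. The Cnn1 calls were lost without vehicle replicate 2 or either library of vehicle with JQ1 (adjusted p from 0.051 to 0.12), without ET-1 replicate 2 or ET-1 with JQ1 replicate 1 (0.087 to 0.11), and without PE replicate 2 or PE with JQ1 replicate 1 (0.066 to 0.079). In ET-1 the Cnn1 call was also lost when only the 4 libraries compared were fitted (0.082). With the replicate block all 5 mural members were called in each treatment and Tie1 in none (adjusted p = 0.081, 0.16 and 0.21), beside 27.9%, 29.8% and 29.7% of tested genes. Unfiltered and with the block, Kdr had an adjusted p of 0.020 in vehicle, 0.028 in ET-1 and 0.057 in PE, and Tek 0.0052, 0.020 and 0.0074. In the filtered fit with the block, Kdr missed the threshold without either replicate 2 library compared (0.072 to 0.23) and Tek in ET-1 without either replicate 1 library compared (0.098 to 0.10). The blocked call of Pdgfrb in PE was lost without PE replicate 1, PE replicate 2 or PE with JQ1 replicate 2 (0.097 to 0.19).

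Markers of other cells moved with JQ1 too. Of 11 tested fibroblast markers 1 fell without the block and 10 with it (median −0.90), beside 29.9% and 36.9% of all tested genes, the former being Thy1 at −1.13 ± 0.35 (adjusted p = 0.022). Of 5 tested macrophage markers 2 fell without the block and all 5 with it (median −0.81), of which 2 and 3 reached 1 rescaled FPKM only in DMSO libraries. These 2 were C1qa, lower by 1.18 ± 0.25 (unfiltered adjusted p = 0.0064), and Csf1r, by 0.95 ± 0.29 (0.030). Summed fibroblast markers were at 229 to 1362 in DMSO and 123 to 678 in JQ1 libraries, and summed macrophage markers at 3.59 to 15.9 and 1.01 to 6.84. Of 9 cardiomyocyte markers 4 fell and 1 rose (5 and 1 with the block, median −0.23), with Tnni3 at −1.28 ± 0.17 (adjusted p = 0.00032) and Tnnt2 at 1.05 ± 0.14 (0.00035). The median over all tested genes was 0.02. The part of these cells in the members' falls was not tested.

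The agonists changed Cspg4, Cnn1 and Abcc9, and no tested endothelial member was called. ET-1 raised Cspg4 by 1.06 ± 0.15 (adjusted p = 0.022) and PE by 1.16 ± 0.15 (0.011), a level 1.84 to 2.62 times that of vehicle in the same replicate. PE raised Cnn1 by 1.84 ± 0.41 (0.039), while for ET-1 the difference was 1.65 ± 0.41 (0.073, or 0.0018 with the replicate block). Cnn1 was 3.06 to 3.78 times its vehicle level in all 4 pairs. Abcc9 fell by 0.86 ± 0.11 with ET-1 (0.017) and by 0.73 ± 0.11 with PE (0.014), to 0.499 to 0.606 times vehicle.

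Calls were rarer among all genes here: ET-1 raised 1.31% and lowered 1.57% of those tested, and PE 2.89% and 3.18%. With the replicate block the shares were 8.89% and 9.50% for ET-1 and 11.8% and 12.2% for PE. In the fit without the block, leaving out any 1 of the 4 libraries compared ended the ET-1 calls of Cspg4 (adjusted p from 0.058 to 0.15) and Abcc9 (0.066 to 0.12) and the PE call of Abcc9 (0.063 to 0.11). The PE call of Cspg4 was lost without vehicle replicate 1, vehicle replicate 2 or PE replicate 2 (0.053 to 0.11), and that of Cnn1 without any 1 of 10 libraries (0.056 to 0.26). The ET-1 call of Cspg4 was also lost on deposited FPKM (0.057), the PE call of Cnn1 without the filter (0.063), and all 5 when only the 4 libraries compared were fitted (0.11 to 0.16). With the block all of these calls stood in every fit with a library left out.

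Notch3 was at 0.590 to 0.854 times vehicle in the 4 agonist pairs without JQ1. Its difference was −0.53 ± 0.71 with ET-1 (adjusted p = 0.74) and was called with the replicate block (0.016), but not without vehicle replicate 2, ET-1 replicate 1 or ET-1 replicate 2 (0.078 to 0.11). With PE it was −0.32 ± 0.71 (0.84, or 0.074 with the block). The fibroblast markers had a median difference of −0.53 with ET-1 and −0.36 with PE, with 10 and 9 of 11 below 0. None of them was called without the block, and with it 7 fell and 1 rose with ET-1 and 4 fell and 1 rose with PE. The 5 macrophage markers had medians of −0.21 and −0.32 and none was called in either fit. Their part in the members' differences was not tested. Kdr differed by −0.28 ± 0.40 with ET-1 (0.76) and by −0.33 ± 0.40 with PE (0.69), and Tek, Tie1 and Pdgfrb by −0.28 to −0.04. PE and ET-1 differed by 0.10 ± 0.15 for Cspg4, 0.19 ± 0.41 for Cnn1 and 0.14 ± 0.11 for Abcc9, none called, where 0.00725% of tested genes (1 gene) was called and 206 had an unadjusted p under 0.05.

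**Figure D4:**
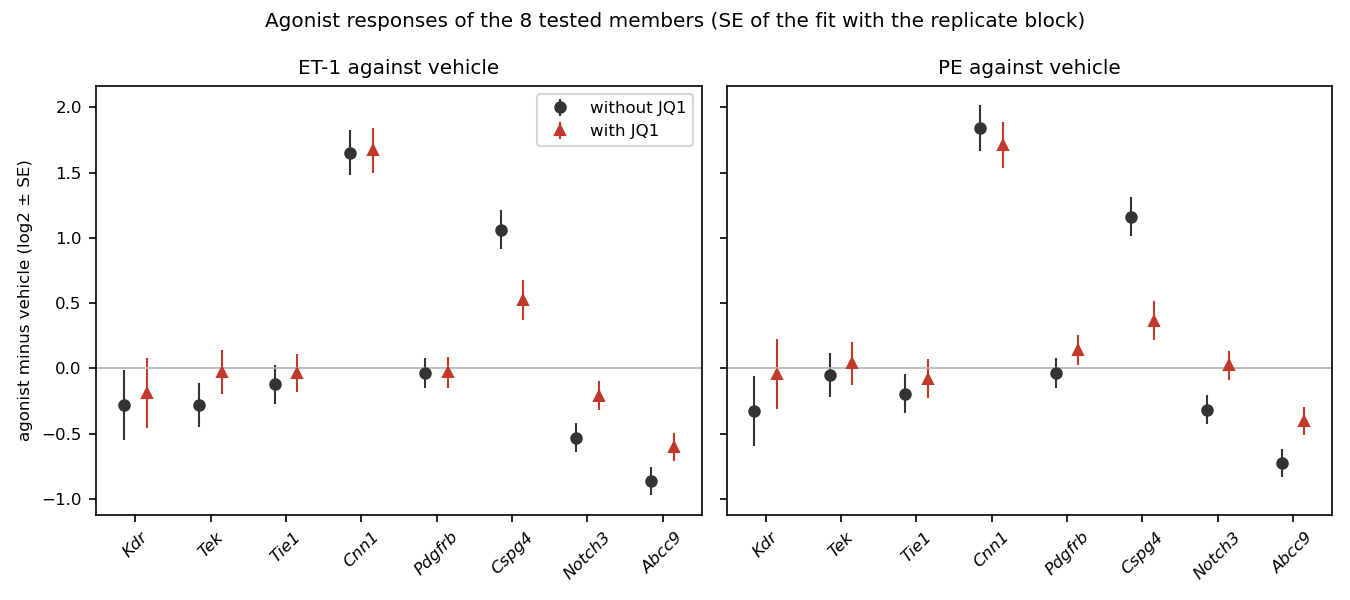
Agonist minus vehicle (log2 ± SE of the fit with the replicate block) for the 8 tested members, ET-1 at left and PE at right, without JQ1 (circles) and with it (triangles). Cnn1 lies at 1.65 to 1.84 in all 4 positions, and Cspg4 at 1.06 and 1.16 without JQ1 and at 0.52 and 0.36 with it.

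In the presence of JQ1, Cnn1 differed by 1.67 ± 0.41 with ET-1 (adjusted p = 0.095, or 0.0032 with the replicate block) and by 1.71 ± 0.41 with PE (0.10, or 0.0033). Abcc9 fell by 0.60 ± 0.11 with ET-1 (0.047), a call lost without any 1 of the 12 libraries (0.053 to 0.34), with a pseudocount of 1 (0.051), without the filter (0.073) and on deposited FPKM (0.095). With PE it differed by −0.40 ± 0.11 (0.13, or 0.049 with the block, and then lost without any 1 of 10 libraries at 0.051 to 0.29). Cspg4 differed by 0.52 ± 0.15 (0.15) and 0.36 ± 0.15 (0.30), and neither was called with the block (0.061 and 0.15). Under JQ1, ET-1 raised 0.319% and lowered 1.04% of tested genes, and PE 0.384% and 0.334%. With the block ET-1 raised 4.92% and lowered 6.68%, and PE 6.17% and 5.89%.

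The differences between these responses were tested as interactions, and none was called among the members. For Cspg4 the response with JQ1 minus that without was −0.54 ± 0.22 for ET-1 (adjusted p = 1) and −0.80 ± 0.22 for PE (0.74, or 0.21 with the block). For Cnn1 it was 0.02 ± 0.58 and −0.13 ± 0.58, and for Abcc9 0.26 ± 0.16 and 0.32 ± 0.16. No gene of those tested (0.0%) was called in either interaction by limma, with 616 and 717 genes at an unadjusted p under 0.05, and 5 and 10 genes were called with the block.

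Partners of the members in the vessel wall were taken from lists. Of 18 tested ligands and receptors of the vessel wall, 8 fell and 1 rose with JQ1 (13 and 1 with the block, median −0.61), beside 29.9% and 30.2% of all tested genes (36.9% and 36.6% with the block). Of the 8, 4 reached 1 rescaled FPKM only in DMSO libraries. Among these, Angpt1, the ligand that activates Tek, fell by 1.94 ± 0.15 (unfiltered adjusted p = 4.3e-05), Angpt2, the second angiopoietin, by 1.37 ± 0.30 (0.0072), and Pgf, a ligand of the VEGF family, by 1.84 ± 0.24 (0.00059). Pdgfc, a platelet-derived growth factor, fell by 1.32 ± 0.17 (adjusted p = 0.00028). ET-1 lowered 0 and PE 1 of the 18, beside 1.57% and 3.18% of all tested genes. With the block they lowered 2 and 3, beside 9.50% and 12.2%.

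Of 10 tested Notch pathway genes, 2 rose and 2 fell with JQ1 (3 and 3 with the block, median 0.03), beside 30.2% and 29.9% of all tested genes. Jag2, a Notch ligand, fell by 1.3 ± 0.17 (adjusted p = 0.00027) and Maml2, a co-activator at 1 rescaled FPKM only in DMSO libraries, differed by −0.50 ± 0.18 (unfiltered adjusted p = 0.053). Hey2, a target gene of Notch that heart muscle also transcribes, rose by 0.86 ± 0.064 (adjusted p = 1.5e-05) and the receptor Notch2 by 0.33 ± 0.060 (0.0017). The ligand Dll4 was listed at 0 in all 12 libraries.

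The other endothelial and mural lists held genes that fell and genes that rose. Of 10 tested other endothelial genes 4 fell and 1 rose with JQ1 (8 and 1 with the block, median −0.88). All 4, and 6 of the 8, reached 1 rescaled FPKM only in DMSO libraries. With no filter 7 of 28 genes of this list fell, beside 23.5% of all genes. With no filter and the block 17 of the 28 fell, beside 30.2% of all genes. Clec14a, an endothelial lectin-like receptor, fell by 1.59 ± 0.13 (unfiltered adjusted p = 5.2e-05), Esam by 1.71 ± 0.40 (0.0097) and Icam2 by 1.17 ± 0.16 (0.00072), whereas Egfl7, a secreted endothelial factor, rose by 1.11 ± 0.15 (adjusted p = 0.00039). Of the 29 matched, 18 were below 1 rescaled FPKM everywhere and Robo4 was listed at 0. Of 12 tested other mural genes 6 fell, 2 of them at 1 rescaled FPKM only in DMSO libraries, and 1 rose (8 and 2 with the block, median −0.65), beside 29.9% and 30.2% of all tested genes. They included Myh11 (−1.24 ± 0.26, adjusted p = 0.0033), Lmod1 (−0.94 ± 0.31, 0.028) and Acta2 (−0.88 ± 0.17, 0.0020). Foxs1, 1 of the 2, differed by −1.29 ± 0.31 (unfiltered adjusted p = 0.011). Acta2 differed by 0.26 ± 0.29 with ET-1 and 0.35 ± 0.29 with PE, and Myh11 by −0.31 ± 0.44 and −0.37 ± 0.44, none called, beside the 1.65 and 1.84 of Cnn1.

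Abcc9 shares its channel with pore subunits of the Kcnj family. Kcnj11, the Kir6.2 pore of the heart muscle KATP channel, fell by 2.22 ± 0.11 with JQ1 (adjusted p = 3e-06), and Abcc8, the SUR1 subunit, by 0.40 ± 0.11 (0.012). With the agonists Kcnj11 differed by −0.50 ± 0.19 for ET-1 (0.20) and −0.65 ± 0.19 for PE (0.091, or 0.046 with the block). Neither gene was called between replicates (Kcnj11 0.02 ± 0.11, Abcc8 −0.05 ± 0.11). Kcnj8, the third subunit listed, missed the filter. It was higher in replicate 1 of all 6 groups and was called so with no filter, as were 13.6% of all genes. In that fit Kcnj8 was not called lower with JQ1. The summed cardiomyocyte markers were at 13972 to 21316 in DMSO and 15714 to 25545 in JQ1 libraries. Tnnt2 alone made up 5089 to 6813 and 10405 to 14801 of these sums. Of the 9 markers, 4 fell with JQ1 and 1 rose, so the sum does not stand for the single markers.

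Transcript estimates divided Abcc9 between 2 models that share exons, so the split is an estimate. The longer model (6581 nt) held 61.4 to 76.1% of the gene's FPKM in 10 libraries. It held 27.5% and 35.4% in replicate 2 of ET-1 with JQ1 and of PE with JQ1, where its level was 0.759 and 1.14. For Kdr, the 4029 nt model was at 0.506, 0.242 and 0.620 in replicate 2 of vehicle, ET-1 and PE, and at 0.017 or below in every JQ1 library. The full-length model (5986 nt) was at 0.361 to 0.980 in DMSO and 0.113 to 0.250 in JQ1 libraries.

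Profiles over the 12 libraries, each centred on its own mean, were compared by the root mean square of their log2 differences, as a description. The closest pairs of tested members were Tie1 with Pdgfrb (0.207) and Tek with Notch3 (0.216), each an endothelial with a mural gene. Tek and Tie1 differed by 0.303, Cnn1 and Cspg4 by 0.604, and Kdr was nearest to Abcc9 (0.419) and far from Tek (1.01). Endothelial and mural genes were thus interleaved by this measure. The constant added before log2 compresses the differences of low genes such as Tek and Tie1. In linear terms the median ratio of replicate 1 to replicate 2 was 17.9 for Tie1 and 7.98 for Tek. It was 3.10 for Pdgfrb and 2.95 for Notch3. How far the closeness of these pairs comes from the added constant was not tested.

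All other tested genes were compared with the members on the same compressed scale. The mean profile of Kdr, Tek and Tie1 was most like those of Rpp25 (0.079), Cd48 (0.091), Ikbke (0.101), Mrc1 (0.108) and Unc93b1 (0.114). Mrc1 is a mannose receptor of macrophages and Cd48 a surface protein of white blood cells. The mean of Cnn1, Pdgfrb, Cspg4 and Notch3 was most like Fam114a1l1 (0.143), Aass (0.153), Spry4 (0.165), Tagln2 (0.166) and Slc6a6 (0.174). Abcc9 was most like Ppp1r3a (0.156), a glycogen-targeting subunit of striated muscle, then Cntnap1 (0.158), Rcbtb2 (0.171), Adamts12 (0.182) and Cryl1 (0.185).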

How the data were processed

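Total RNA of cultured neonatal rat cardiomyocytes was sequenced from rRNA-depleted stranded libraries, per the labels' protocols. Trim Galore 0.6.0, STAR 2.7.1a, StringTie 1.3.4d, DESeq2 1.24.0 and build rn6 (Rnor_6.0) were used, per the submitters' processing notes. The deposited tables give each transcript's mean coverage per base and its FPKM, which the authors had normalized for transcript length and library total, per the file headers. Overlapping and antisense genes are uncertain (strand settings: not given in the sources used here).

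FPKM was summed by gene identifier and divided by size factors, medians of ratios over the 15551 genes detected in every library (0.873 to 1.127). A gene was kept if 2 libraries had 1 rescaled FPKM or more. The test was limma 3.58.1 (R 4.3.3, trended and robust moderation) on log2(value + 0.5), with 6 group means over 12 libraries and Benjamini-Hochberg adjustment over 13793 genes. Such differences understate the change of low genes. Cdh5 and Vwf, below the filter, were compared by exact permutation (scipy 1.17.1, Python 3.11.15). The limma step was tested on simulated data. Those data held no replicate effect, so they do not bear on the choice between the fits with and without the block. Depth limits the low members, since Tie1 had as few as 149 covered bases and Tek 493 in a library.

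The labels do not say what a replicate number marks. Deviations of same-numbered libraries from their group means correlated at 0.16 to 0.67 over all 15 pairs of groups, so the numbers were taken, from the data, to pair the libraries. The fit with the replicate number as a block is given where a member's call depends on it, and beside list counts that differ by more than 1.5 times. For genes that reached the filter on 1 side only, the adjusted p printed is that of the fit with no filter (21852 genes). Replicate 1 against replicate 2 comes from the fit with group and replicate.

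Members, lists and tests were chosen with earlier results of these data known. All 10 members are named. From each list the text gives counts and at most 4 genes with the largest JQ1 difference among those past the threshold. For each of 3 profiles it names the 5 other tested genes most like it. Alternatives were other pseudocounts (0.1, 1), filters and scalings, the block, only the groups compared, and each library left out. Promoters were matched by symbol in RefSeq (GRCr8).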

Additional observations from a re-analysis of the deposited data

How the results depend on the processing

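The replicate block moved counts by over 1.5 times: members called rose to 8 for the mean JQ1 effect, 7 in each treatment, 4 for ET-1 against vehicle and 2 for each agonist under JQ1. The JQ1 and replicate counts include Kdr, Tek and Tie1, which passed the filter on 1 side. Genes called rose to 7279, 7849 and 7782 for JQ1 in vehicle, ET-1 and PE, from 4411, 5168 and 5030. They rose to 2537 from 396 for ET-1 and to 3314 from 837 for PE, to 1601 from 187 and 1664 from 99 under JQ1, and to 5 and 10 from 0 in the interactions. For Cdh5 the JQ1 difference of −0.1902 passed 0.05 and for Vwf that of −0.1093 no longer did. The other counts of members called did not change with it.

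A pseudocount of 1 left 0 members called for ET-1 under JQ1 and 2 genes in the PE interaction. With no filter on low values 9 genes were called for PE against ET-1, 88 (0 members) and 34 for the agonists under JQ1, and 10 and 13 in the interactions. A mean of at least 1 rescaled FPKM gave 0 genes for PE against ET-1 and 3 members between replicates, since Kdr, Tek and Tie1 then left the test. Deposited FPKM gave 211 genes (1 member) for ET-1, 536 for PE, 25 (0 members) and 31 under JQ1. On it the median of all genes was −0.11 for ET-1, −0.13 for PE and 0.12 between replicates, against −0.02, −0.01 and −0.02 rescaled. The share of calls that were higher went from 50.3 to 39.5% for the mean JQ1 effect, from 47.9 to 31.3% in vehicle, 47.8 to 31.9% in ET-1, 47.6 to 35.3% for PE against vehicle, 23.5 to 36.0% and 53.5 to 71.0% under JQ1, and 51.2 to 87.5% between replicates. Fits of only the groups compared, with 4 libraries, called 2933, 2346 and 3124 genes for JQ1, 0 genes and 0 members for either agonist with or without JQ1, and 1 gene in the PE interaction.

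Leaving out 1 library, over fits without and with the block, gave 4 to 8 members called for the mean JQ1 effect and 2 to 7 in each treatment (2584 to 7299, 3562 to 7856 and 3311 to 7794 genes). It gave 0 to 2570 genes and 0 to 4 members for ET-1, 0 to 3338 and 0 to 3 for PE, 0 to 5 genes for PE against ET-1, and 0 to 1864 genes for ET-1 and 0 to 1769 for PE under JQ1 (0 to 2 members each). The interactions had 0 to 3 and 0 to 9 genes, and the replicates 3789 to 4889 genes and 5 to 6 members. No gene was called for ET-1 without either vehicle library, or for PE without vehicle replicate 2, when the block was left out. Under JQ1 none was called for ET-1 without either vehicle with JQ1 library or ET-1 with JQ1 replicate 2, or for PE without either library of PE or of vehicle with JQ1 or PE with JQ1 replicate 2. Cdh5 ranged from −0.2817 to −0.0987 and Vwf from −0.1573 to −0.0613. Without the block, leaving out a library unbalances the replicate numbers, and some member differences changed sign. For JQ1 the ranges were −1.2914 to 0.1856 (Pdgfrb, vehicle), −1.4341 to 0.2017 (Tek), −1.4006 to 0.3077 (Pdgfrb) and −1.1319 to 0.0534 (Notch3) in ET-1, and −1.6524 to 0.0859 (Tek), −1.3022 to 0.546 (Pdgfrb) and −1.192 to 0.1457 (Notch3) in PE. For ET-1 against vehicle Notch3 ranged from −1.1257 to 0.0597. None changed sign with the block. Among the differences of tested members, 46 passed the threshold with or without the block. Of the other 50, 44 changed sign under an alternative and 1 passed the threshold.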
